A study of Mus musculus with 20 samples.

Results

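Primordial germ cells of E10.5 and E11.5 were examined in single-cell transcriptomes of mouse urogenital ridges, the tissue in which the gonad forms. Cells were taken when the cell type column of the deposited cell table named germ cells and the embryonic day was E10.5 or E11.5, which gave 1025 of the 14876 germ cells among 94705 cells in all. Embryos came from CD-1 females mated with heterozygous Tg(Nr5a1-GFP) males, so that a GFP transgene driven by Nr5a1 regulatory sequence marks somatic cells of the gonad and not germ cells. The groups were XX and XY embryos of E10.5 and of E11.5, dissected as gonad with mesonephros, and XX and XY embryos of E12.5, dissected as gonads, which served for comparison. Each group had 2 libraries from independent biological samples, and the number of embryos pooled in a library is not given in the sources used here. All carried the same cross and no treatment. XX and XY libraries of a stage with the same replicate number share a date, and stages never do, so stage and date cannot be told apart.

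Primordial germ cells are the founders of eggs and sperm. They arise outside the embryo proper, migrate through the hindgut guided by KIT ligand and CXCL12, and settle in the genital ridges, while they keep a network of pluripotency genes active. During and after this journey they erase most DNA methylation, genes of the later germline become active, XX cells reactivate the silent X chromosome, and the cells then take an oogenic or a spermatogenic course under signals of the gonad.

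Several features of the libraries bear on what follows. The 8 libraries of E10.5 and E11.5 held 4 to 392 germ cells, whose summed counts of unique molecular identifiers (UMIs, 1 per captured transcript) ran from 250820 to 17486796. XX replicate 1 of E10.5, with 4 germ cells, was below the minimum of 5 cells for a sum, so that XX E10.5 rested on the 7 cells of replicate 2 in every fit across genes, and its lone sum was assumed to vary like the other groups. Values given without XX E10.5 replicate 2 therefore compare E11.5 with E10.5 in XY alone, and early XX with XY at E11.5 alone. A single UMI was worth 2.57 CPM (the unit of level used here, UMIs of a gene scaled to a common sum) in that sum, 0.455 CPM in XY replicate 1 and 2.05 CPM in XY replicate 2. Of these 7 cells, 1 held 61 of the 79 UMIs of Hox genes, 49 of the 55 of Cxcl12 and all 13 of Dcn, together with 66 UMIs of Pou5f1 and 75 of Dppa3. Calls that rest on it are given with and without it. The files also hold at 0, in every cell of a sex and stage, each gene seen there in fewer than 20 cells. This emptied 5569 of 26397 genes in XX E10.5, where there were 11 germ cells, and 5069 in XY E10.5, where there were 59. Such genes, among them Prdm14, Sycp1 and Stra8 at E10.5, were left out of the tests that involve the group. In XX and XY replicate 1 of E11.5, 99 of 250 and 31 of 212 germ cells lay in clusters that are otherwise made up mainly of E12.5 cells, and the other E11.5 libraries had none there. Libraries shared 6 to 52 cell barcodes per pair, and 70 of the 1025 cells carried a shared one.

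Germ cells were a far larger share of the tissue at E11.5 than a day earlier. At E10.5 they were 0.156% and 0.153% of cells in XX replicates 1 and 2, with exact 95% intervals of 0.0426 to 0.400% and 0.0617 to 0.316%. In XY they were 1.78% (1.32 to 2.35%) and 0.197% (0.0943 to 0.361%), so that XY replicate 1 stood well above the other E10.5 libraries. The XX libraries of E11.5 had shares of 6.26 and 4.43%, and the XY libraries 4.14 and 7.43%. Every E11.5 library lay above every E10.5 library. The mean was 0.572 ± 0.806% at E10.5 and 5.57 ± 1.56% at E11.5 (SD, n = 4 libraries each), a difference of 4.99 percentage points with p = 0.0286 by an exact two-sided permutation test, the smallest p that 4 against 4 libraries allow. The XX and XY library of a replicate share a date, and 2 dates against 2 would not reach the threshold. With any library left out, the difference was 4.37 to 5.47 points and the exact permutation p = 0.0571, the smallest then possible. A share counts germ cells against all dissected cells, and so cannot tell a rise in germ cells from a change in how much other tissue was taken.

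**Figure D1:**
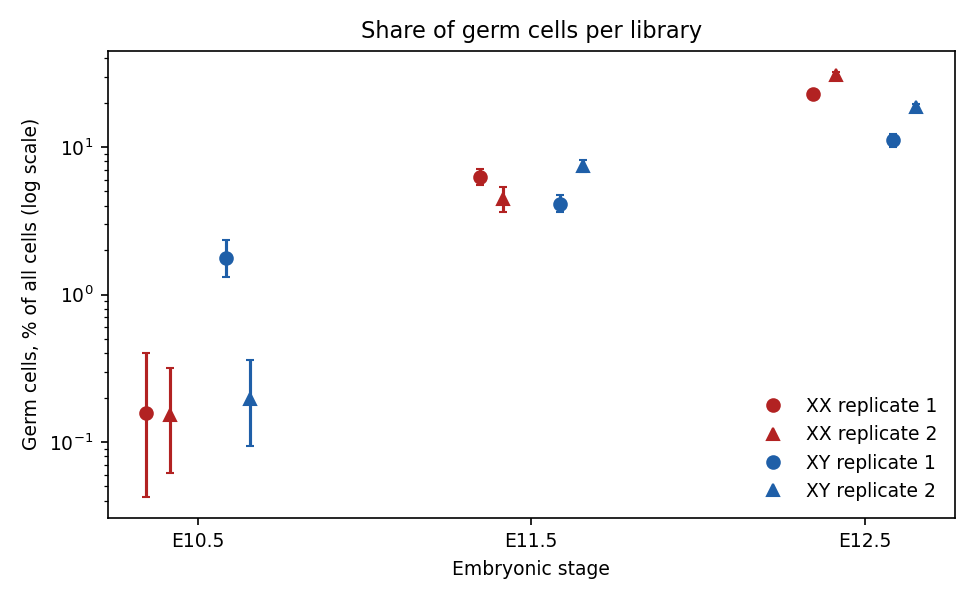
Germ cells as a percent of all cells of each library, on a log axis, with exact 95% intervals that cover counting error only. XX is red, XY is blue, and the 2 replicates of a group have different symbols. The 4 libraries of E11.5 lie between 4.14 and 7.43%, above the 4 of E10.5 at 0.153 to 1.78%.

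The cells carried the 4 markers of their type in every library. Pou5f1, which encodes the pluripotency factor OCT4, stood at 686 to 978 CPM in the summed germ cells of the 8 libraries (median 795) and at 0.641 to 7.40 CPM in all other cells of the same libraries. Dppa3, which encodes STELLA, a maternal factor that protects DNA methylation in the zygote, stood at 801 to 1269 CPM against 0.324 to 7.97. Dnd1, an RNA-binding protein needed for germ cell survival, stood at 112 to 191 against 1.48 to 5.84 CPM, and Kit, the receptor for KIT ligand, at 27.9 to 66.9 against 4.53 to 8.46 CPM. The ranges of germ and other cells did not overlap for any of the 4. A UMI of Pou5f1 was found in 96.0 to 100% of germ cells per library, and one of Kit in 73.5 to 100%. Among other cells, 1.62 to 6.40% had a Pou5f1 UMI at E10.5 and 8.67 to 13.4% at E11.5, at 1.76 to 2.48 times fewer UMIs per cell. Germ cells were deep, with a median of 41601 to 59027 UMIs at E10.5, 37310 to 43815 at E11.5 and 25730 to 33058 at E12.5. A single cell of XY E10.5 replicate 1 lay in another cluster than the 69 other germ cells of that stage and had no UMI of Pou5f1 or Dazl. These CPM values are shares of the UMIs of a sum without further scaling. Since germ cells were defined by clusters of whole transcriptomes, differences from other cells are a description and were not tested.

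**Figure D2:**
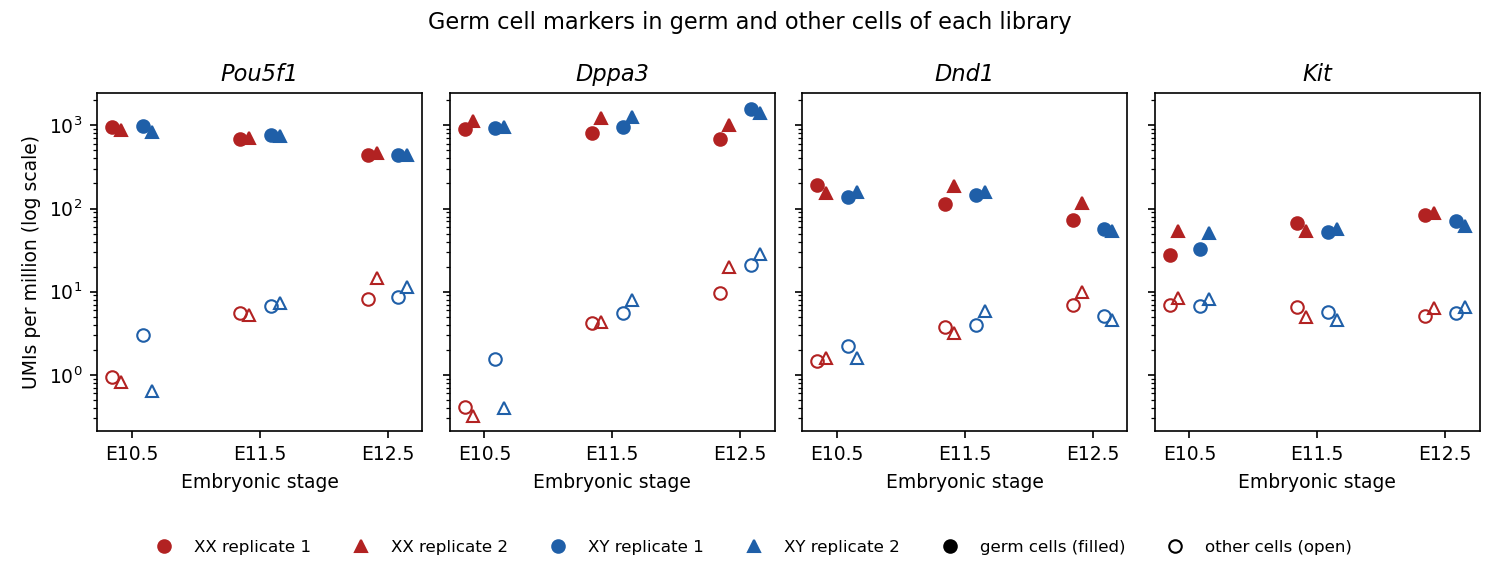
Levels of Pou5f1, Dppa3, Dnd1 and Kit in CPM, on a log axis, in the summed germ cells (filled) and the summed other cells (open) of each library of the 3 stages. Pou5f1 lies at 686 to 978 CPM in germ cells of E10.5 and E11.5 and at 0.641 to 7.40 CPM in the other cells.

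Beyond the markers, 13055 genes were measured in the germ and other cells of the 8 libraries (at least 5 CPM in one of the kinds), and 2378 of them (18.2%) were over 2-fold apart in the same direction in all 8, of which 522 were higher in germ cells (4%) and 1856 lower (14.2%). The genes that stood furthest above the other cells, by their lowest log2 ratio of CPM among the 8 libraries, were Dppa5a, an RNA-binding protein of pluripotent cells (1854 to 3816 CPM, lowest log2 ratio 7.61), Dppa3 and the X-linked homeobox genes Rhox9 (619 to 952 CPM, 7.06) and Rhox6 (404 to 689 CPM, 6.95). Others among the 20 furthest above were Rpl39l, Rhox5, Pou5f1, Zfp42, Dppa4, Dazl, L1td1, Tex19.1, Fkbp6, BC048679, Tdh, Utf1, Tfap2c, Cyct and Sox2. The last of these 20, Sox2, was still at least 4.56 log2 units above the other cells of each library. Rhox and ribosomal protein genes have close copies in the genome, among which counts can be split. Dazl, which encodes an RNA-binding protein that commits cells to the germline, ranged from 75.1 to 458 CPM among the 8 libraries.

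Of the 24 measured genes of the list for pluripotency and germ cell identity, 20 were over 2-fold higher in all 8 libraries and none was lower, with a median log2 ratio of 4.96, against -0.301 for all genes measured. Nanog stood at 49.6 to 61.6 CPM in germ cells and 0.0687 to 0.757 CPM in the other cells, and Ifitm3, a membrane protein long used to mark nascent germ cells, at 380.1 to 1005 CPM in germ cells and 13.9 to 32.7 CPM in the other cells. Of 24 measured genes of the later germline 15 were higher and none lower (median 3.87), and of 7 meiosis genes 4 were higher and none lower (median 2.50). These were 24 of the 43 germline genes and 7 of the 15 meiosis genes in the matrix. A gene that the other cells hardly express counts as measured only through germ cells, so a lower value was hardly open to it. The same holds in reverse for genes that germ cells hardly express, such as those of the soma below. Morc1, a repressor of transposons in the male germline, stood at 26.2 to 82.2 CPM in germ cells and 0.0927 to 0.327 CPM in the other cells. Genes that place cells along the body axis or mark the soma lay the other way, since 25 of 28 Hox genes and 13 of 15 genital ridge markers were lower in all 8 libraries and none was higher. Wt1, a transcription factor of the genital ridge, stood at 3.99 to 25.7 CPM in germ cells against 63.7 to 257 CPM, and the GFP transgene at 11.96 to 96.6 against 212 to 1726 CPM.

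Machinery that sets or erases DNA methylation differed gene by gene. Tet1, an enzyme that oxidizes 5-methylcytosine, stood at 48.8 to 81.5 CPM in germ cells and 19.9 to 26.3 CPM in the other cells, and Parp1 was the other member that was over 2-fold higher in all 8. Uhrf1, which brings the maintenance methyltransferase to replicating DNA, stood at 6.15 to 17.6 CPM in germ cells and 57.98 to 94.4 CPM in the other cells. Dnmt3a, Dnmt3b and Tet3 were also lower in all 8, and the log2 ratio of Dnmt3a was -2.47 to -1.22. Among imprinted genes, which are expressed from 1 parental copy in the soma, 21 of 28 were lower in germ cells and 2 were higher (median -2.42). H19 stood at 67.9 to 267 CPM in germ cells and 623 to 1221 CPM in the other cells, and Igf2 at 22.7 to 53.9 CPM in germ cells and 237 to 597 CPM in the other cells. Phlda2 went the other way, at 85.1 to 883 CPM in germ cells and 2.09 to 6.97 CPM in the other cells, as did Snrpn with a log2 ratio of 1.01 to 1.88.

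The ligand genes Kitl and Cxcl12 were lower in germ cells than in the other cells in each of the 8 libraries. Kitl, the KIT ligand, stood at 0 to 7.97 CPM in germ cells and 56.02 to 90.1 CPM in the other cells, the reverse of Kit. Cxcl12 stood at 10.46 to 141 CPM in germ cells and 162 to 412 CPM in the other cells, and its receptor Cxcr4 at 2.05 to 13.4 CPM in germ cells and 0.519 to 4.01 CPM in the other cells. Epcam and Pecam1, which act in adhesion, and Kit were among the 4 of 25 receptors and adhesion genes higher in all 8 libraries, and 9 were lower, among them Pdgfra, Igf1r and Insr (median log2 ratio -0.60). Epcam stood at 127 to 203 CPM in germ cells and 14.5 to 37.98 CPM in the other cells. The cell cycle list did not stand apart by its counts, with E2f1 higher and Ccnd1, Ccnd2, Cdkn1b and Myc lower of 28 measured, beside 4% and 14.2% of all genes. Ccnd2 stood at 9.11 to 61.6 CPM in germ cells and 281 to 410.4 CPM in the other cells, while E2f1, a factor that drives entry into S phase, had a log2 ratio of 1.65 to 2.49. In the authors' assignment of cycle phases from S and G2/M gene scores, 0 to 3.96% of germ cells per library were put in G1, against 21.4 to 58.7% of the other cells. Germ cells had 1.76 to 2.48 times as many UMIs per cell, and the part of depth in the phase calls was not tested. Markers of other cell types were summed to show how much of their RNA the germ cell sums hold, and its source was not tested. The 12 erythrocyte markers summed to 25.7 to 464 CPM in germ cells of E10.5 and to 1806, 66.1, 1057 and 69.5 CPM in the 4 libraries of E11.5, high in both replicate 1 libraries, with 538 to 10957 and 1232 to 12624 CPM in the other cells. The 16 genital ridge markers summed to 55.6 to 213 CPM in germ cells and 980 to 2196 CPM in the other cells, and immune markers to 0 to 25.5 CPM in germ cells and 3.91 to 53.2 CPM in the other cells. In XY E10.5 replicate 1 the immune markers were higher in germ cells, at 25.5 against 3.91 CPM.

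Genes of the later germline change with stage in the comparisons that follow, and the sequence before their start sites is shown for 4 of them, because work on their silencing names CpG and 2 motifs there, and 3 of the 4 hold a motif. Promoters of germline genes are known to be held silent in the soma by DNA methylation of their CpG dinucleotides and by a Polycomb complex that contains MGA, MAX and E2F6 and reads an E-box and an E2F site. Ddx4 encodes an RNA helicase that marks germ cells in the gonad, Sycp3 a part of the meiotic chromosome axis, Mael a protein of the transposon-silencing piRNA pathway, and Dazl is named above. The 250 bases before the RefSeq start, on the mouse build GRCm38.p6, are at chr13:112652311-112652560, minus strand, for Ddx4, chr10:88459337-88459586, plus strand, for Sycp3, chr1:166238745-166238994, minus strand, for Mael and chr17:50293621-50293870, minus strand, for Dazl. They run 5′ to 3′ in the direction of the gene, with capitals for an E-box (CACGTG, its own reverse complement) or an E2F site (GCGGGAA, or TTCCCGC on the other strand), each searched independently of the other.
Ddx4: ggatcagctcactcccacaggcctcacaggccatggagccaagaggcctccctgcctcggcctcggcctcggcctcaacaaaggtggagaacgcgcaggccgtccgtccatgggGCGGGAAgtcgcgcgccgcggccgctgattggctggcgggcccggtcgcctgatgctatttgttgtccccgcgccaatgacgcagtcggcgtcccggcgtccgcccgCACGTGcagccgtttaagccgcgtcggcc
Sycp3: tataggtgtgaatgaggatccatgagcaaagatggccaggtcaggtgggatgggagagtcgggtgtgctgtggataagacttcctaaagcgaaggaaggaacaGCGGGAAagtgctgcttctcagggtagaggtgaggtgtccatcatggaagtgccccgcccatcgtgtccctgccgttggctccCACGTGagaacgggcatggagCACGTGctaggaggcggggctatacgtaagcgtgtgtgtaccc
Mael: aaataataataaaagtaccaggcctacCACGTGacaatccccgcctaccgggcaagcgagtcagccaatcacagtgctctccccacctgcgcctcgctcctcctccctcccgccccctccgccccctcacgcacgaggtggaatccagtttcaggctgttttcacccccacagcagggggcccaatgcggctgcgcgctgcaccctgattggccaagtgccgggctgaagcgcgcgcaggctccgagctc
Dazl: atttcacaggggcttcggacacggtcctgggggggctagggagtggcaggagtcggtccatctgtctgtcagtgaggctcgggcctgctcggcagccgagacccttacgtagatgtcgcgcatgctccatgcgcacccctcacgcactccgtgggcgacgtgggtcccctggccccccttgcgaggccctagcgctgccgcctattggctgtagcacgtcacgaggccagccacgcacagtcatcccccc
The Ddx4 window holds 31 CpG, 1 E-box and 1 E2F site. The Sycp3 window holds 12 CpG, 2 E-boxes and 1 E2F site, the Mael window 18 CpG and 1 E-box, and the Dazl window 20 CpG and neither motif. Of the 44 germline genes on the list 34 matched a RefSeq promoter by symbol. Before the first start listed for each gene, 14 of these 34 had an E-box and 7 an E2F site, and the median number of CpG was 15. Of all 32851 promoters 6.02% held the E-box and 3.82% the E2F site, and the median was 6 CpG. These were not cut to 1 start per gene or matched for CpG. Each motif holds a CpG itself, and the part of CpG content in the counts was not tested. A match is a run of letters and not a measured binding site.

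Between E10.5 and E11.5 few genes passed the test. Here and below, levels across stages are CPM scaled for library composition (trimmed mean of M-values, TMM), and they are given in the order XX replicate 2, XY replicates 1 and 2 for E10.5, and XX replicates 1 and 2, XY replicates 1 and 2 for the later stages. A gene was called at a Benjamini-Hochberg adjusted p below 0.05 in the quasi-likelihood test of edgeR if its log2 fold change reached 0.361 in size. Of 16118 genes tested, 6 were called at E11.5 against E10.5 (0.0372%), 2 higher (0.0124%) and 4 lower (0.0248%), while 1779 had an unadjusted p below 0.05. The median log2 fold change over all genes was 0.260, and 0.210 with size factors of DESeq2. Over the 2719 genes with a mean of at least 50 CPM it was 0.053, and -0.00046 with those size factors. Single changes of less expressed genes are therefore to be read against the larger shift, and those of well expressed genes are not. Changes of 4-fold put into simulated counts were recovered at 56.1% for this comparison. With 7, 49 and 10 cells at E10.5, smaller changes were hardly detectable.

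Dmrt1 (chr19:25505618-25604329 on GRCm38), a transcription factor of germ cells and later of Sertoli cells, rose in the germ cell sums. Its change was not called when set against that of the other cells of the same libraries, a test described below. It stood at 2.51, 12.8 and 6.31 CPM at E10.5 and 32.7, 33.9, 25.9 and 34.2 CPM at E11.5 (log2 fold change 2.58 ± 0.37 SE, adjusted p = 0.0455), and no E10.5 library reached the lowest of E11.5. Its call was lost with DESeq2 (adjusted p = 0.0903) and without 6 of the 7 libraries. Kctd14 (chr7:97451323-97459557) had no UMI in the 3 germ cell sums of E10.5 and stood at 18.1, 14.5, 21.04 and 23.7 CPM at E11.5. With 3 counts over the E10.5 group as the floor this is at least 19.8-fold higher (adjusted p = 0.0104). In the other cells of the same libraries Kctd14 went from 4.97, 26.9 and 4.88 to 427, 375, 568 and 594 CPM (without TMM), and its part in the germ cell value was not tested. Phlda2 (chr7:143501545-143503150), an imprinted gene that restrains growth of the placenta, fell from 862, 202 and 158 to 144, 195, 116 and 86.9 CPM (log2 fold change -1.598 ± 0.17 SE, adjusted p = 0.0104). XX replicate 2 held the high value, and XY replicate 2 lay within the range of E11.5. Across its 7 cells Phlda2 had 4 to 117 UMIs. In the 4 cells of XX replicate 1, which no fit across genes used, it had 6, 10, 21 and 7 UMIs, or 175 CPM without TMM.

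The other 3 calls were falls. Pclaf, a partner of the replication clamp PCNA, stood at 190.4, 92.3 and 67.3 CPM at E10.5 and 50.8, 51.2, 49.3 and 53.7 at E11.5 (log2 fold change -1.29 ± 0.15 SE, adjusted p = 0.0104). Dap, a modulator of autophagy, stood at 118, 45.2 and 54.7 and then at 25.04, 34.1, 28.9 and 27.3 CPM (log2 fold change -1.398 ± 0.17 SE, adjusted p = 0.0104). Cxcl12 stood at 138, 15.2 and 27.3 and then at 19.97, 17.1, 10.8 and 11.9 CPM (log2 fold change -1.81 ± 0.22 SE, adjusted p = 0.0104). The highest value of each among the fitted sums was again that of XX replicate 2. In the 4 cells of XX replicate 1, which no fit across genes used, Pclaf was at 203 CPM (51 UMIs). Dap was there at 27.9 CPM (7 UMIs) and Cxcl12 at 23.9 CPM (6 UMIs), all without TMM. Without the 1 cell rich in Hox UMIs, Cxcl12 was at -0.45 (adjusted p = 0.751), Pclaf had an adjusted p of 0.459, and those of Dap and Dmrt1 were 0.0999, and 2 genes were called in all. Leaving out any library but XY E11.5 replicate 1 cost at least 1 of the 6 calls. Without XX E10.5 replicate 2, the log2 fold change of Phlda2 was -0.87 (adjusted p = 0.288) and that of Dmrt1 1.41 (adjusted p = 0.141), while Cxcl12 was at -0.76, Pclaf at -0.698 and Dap at -0.81, none of them called. Without XY E10.5 replicate 1 or XY E11.5 replicate 2 no gene was called. Without both replicate 1 libraries of E11.5, 2 genes were called, and Phlda2 and Kctd14 had adjusted p-values of 0.0537 and 0.0636.

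Germline and pluripotency genes, by contrast, gave 1 call in these lists, Dmrt1. Of 26 germline genes tested 1 was called, with a median log2 fold change of 1.02 against 0.260 for all genes, and 15 of the list were at 0 in a group and not tested. Ddx4 stood at 10.02, 13.8 and 18.9 CPM at E10.5 and 41.1, 44.3, 32.1 and 35.98 at E11.5. All 4 E11.5 libraries lay above the 3 of E10.5, which was so in either direction for 17.4% of all genes tested, and the difference missed the threshold (log2 fold change 1.63 ± 0.25 SE, adjusted p = 0.0522; 0.0286 with DESeq2). Dazl stood at 150.4, 78.5 and 227 and 313, 381, 361 and 468 CPM (log2 fold change 1.37 ± 0.32 SE, adjusted p = 0.158; 0.0121 with DESeq2), and Sycp3 at 20.05, 13.3 and 14.7 and 31.9, 44.6, 29.8 and 40.9 CPM (log2 fold change 1.15 ± 0.29 SE, adjusted p = 0.201). After thinning each cell to 10000 UMIs, 8.16 to 20% of germ cells of the 3 E10.5 libraries and 24.9 to 39.4% of those of E11.5 had a Ddx4 UMI, against 38.8 to 80% and 58.5 to 67.9% without thinning.

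None of the 26 pluripotency and identity genes tested was called in either direction at this step, with a median of 0.01, and 4 more, Prdm14, Dppa2, Tcl1 and Tdgf1, were at 0 in a group. Pou5f1 stood at 849, 1022 and 852 CPM at E10.5 and 688, 692, 782 and 751 at E11.5 (log2 fold change -0.30 ± 0.13 SE, adjusted p = 0.441). Dppa3, Dnd1 and Kit had log2 fold changes of 0.05, -0.00 and 0.34 (adjusted p = 0.942, 1 and 0.58), and the sign of the first turned with the size factors of DESeq2 (-0.0037). Ifitm3 stood at 947, 767 and 906 CPM and then at 381, 446, 477 and 533 (log2 fold change -0.96 ± 0.16 SE, adjusted p = 0.0626). H2afx, a histone variant that marks DNA breaks, stood at 461, 582 and 477 and then at 232, 254, 282 and 302 CPM (log2 fold change -0.89 ± 0.14 SE, adjusted p = 0.0522). Both were lower in all 4 E11.5 libraries than in the 3 of E10.5 without passing the test in edgeR, and both passed with DESeq2 (adjusted p = 1.42e-05 and 2.27e-07). The same held in reverse for the immediate early gene Egr1, at 2.51, 16.2 and 6.31 and 63.2, 44.8, 49.2 and 42.98 CPM (log2 fold change 3.097 ± 0.47 SE, adjusted p = 0.0522), a gene that responds to tissue dissociation, which also passed with DESeq2 (adjusted p = 0.0186). The 17 stress and dissociation genes summed to 457 to 692 CPM at E10.5 and 701 to 855 CPM at E11.5 (without TMM), and none of them was called.

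A day later the transcriptome was far more widely different. At E12.5 against E11.5, 4904 of 16506 genes were called (29.7%), 2598 higher (15.7%) and 2306 lower (14%). The call counts below are to be read against these shares. Here and at the step before, the fit took XX and XY libraries of the same date as independent, so its p-values do not allow for the date. When every library was cut to 7 cells, 423 genes were called, and without XY E11.5 replicate 2, XX E11.5 replicate 2, XX E12.5 replicate 1 or XY E12.5 replicate 2 there were 2793, 3032, 3193 and 3254. The largest rises among genes whose libraries did not overlap were those of Meioc, Sp5, Arhgdig, Tcfl5 and Sycp1, with log2 fold changes of 3.798, 3.14, 2.99, 2.73 and 2.69. Meioc and Sycp1 act in meiosis, and Sp5 is a direct target of WNT signalling. The largest falls were those of Cdc42ep2 (-3.69), Tpm3-rs7 (-3.56), 5430416N02Rik (-2.56), Snhg12 (-2.49) and Sertad1 (-2.47). Tpm3-rs7 is a retrocopy of Tpm3, and reads can be split between them. The noncoding Snhg12, host of small nucleolar RNAs, stood at 250.1, 132, 266 and 226 CPM at E11.5 and 18.8, 22.4, 71.9 and 72.9 at E12.5.

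Most germline genes rose at this step, which shares its E11.5 libraries with the one before. Of 38 tested, 25 were higher, 5 lower and 8 not called, with a median log2 fold change of 0.92 against 0.03 for all genes. Ddx4 went to 128, 107, 92.6 and 87.96 CPM at E12.5 (log2 fold change 1.43 ± 0.13 SE, adjusted p = 7.19e-05), above every library of E11.5. Dazl went to 731, 1018, 665 and 564 CPM (log2 fold change 0.95 ± 0.25 SE, adjusted p = 0.0153), Dmrt1 to 61.9, 67.2, 54.8 and 56.2 CPM (log2 fold change 0.92 ± 0.14 SE, adjusted p = 0.000896) and Sycp3 to 101, 88.9, 50.04 and 35.8 CPM (log2 fold change 0.80 ± 0.16 SE, adjusted p = 0.00423). The libraries of the 2 stages did not overlap for Dazl and Dmrt1, which was so in either direction for 26% of all genes tested, whereas Sycp3 in XY E12.5 replicate 2 lay within the range of E11.5. Mael stood at 31.4, 20.9, 36.1 and 31.9 and then at 136, 74.3, 50.98 and 76.7 CPM (log2 fold change 1.45 ± 0.22 SE, adjusted p = 0.00094), and Stk31, a kinase of the germline, at 24.2, 22.9, 24.8 and 30.7 and then at 142, 106, 53.4 and 53.6 CPM (log2 fold change 1.67 ± 0.14 SE, adjusted p = 5.38e-05). The 5 that fell were Rhox5, Rhox6, Rhox9, Tex19.1 and Fkbp6, all among the 20 genes that stood furthest above the somatic cells at the earlier stages. Rhox6 stood at 416, 682, 416 and 468 CPM and then at 249, 476, 83.5 and 48.6, lower in XY than in XX at E12.5 (log2 fold change -1.67 ± 0.26 SE, adjusted p = 0.00099). Without both replicate 1 libraries of E11.5, which hold the cells in E12.5 clusters, Dazl was at 0.80 (adjusted p = 0.119) and Sycp3 had an adjusted p of 0.0504. Dazl also lost its call without XY E11.5 replicate 1 alone (0.87, adjusted p = 0.0538).

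**Figure D3:**
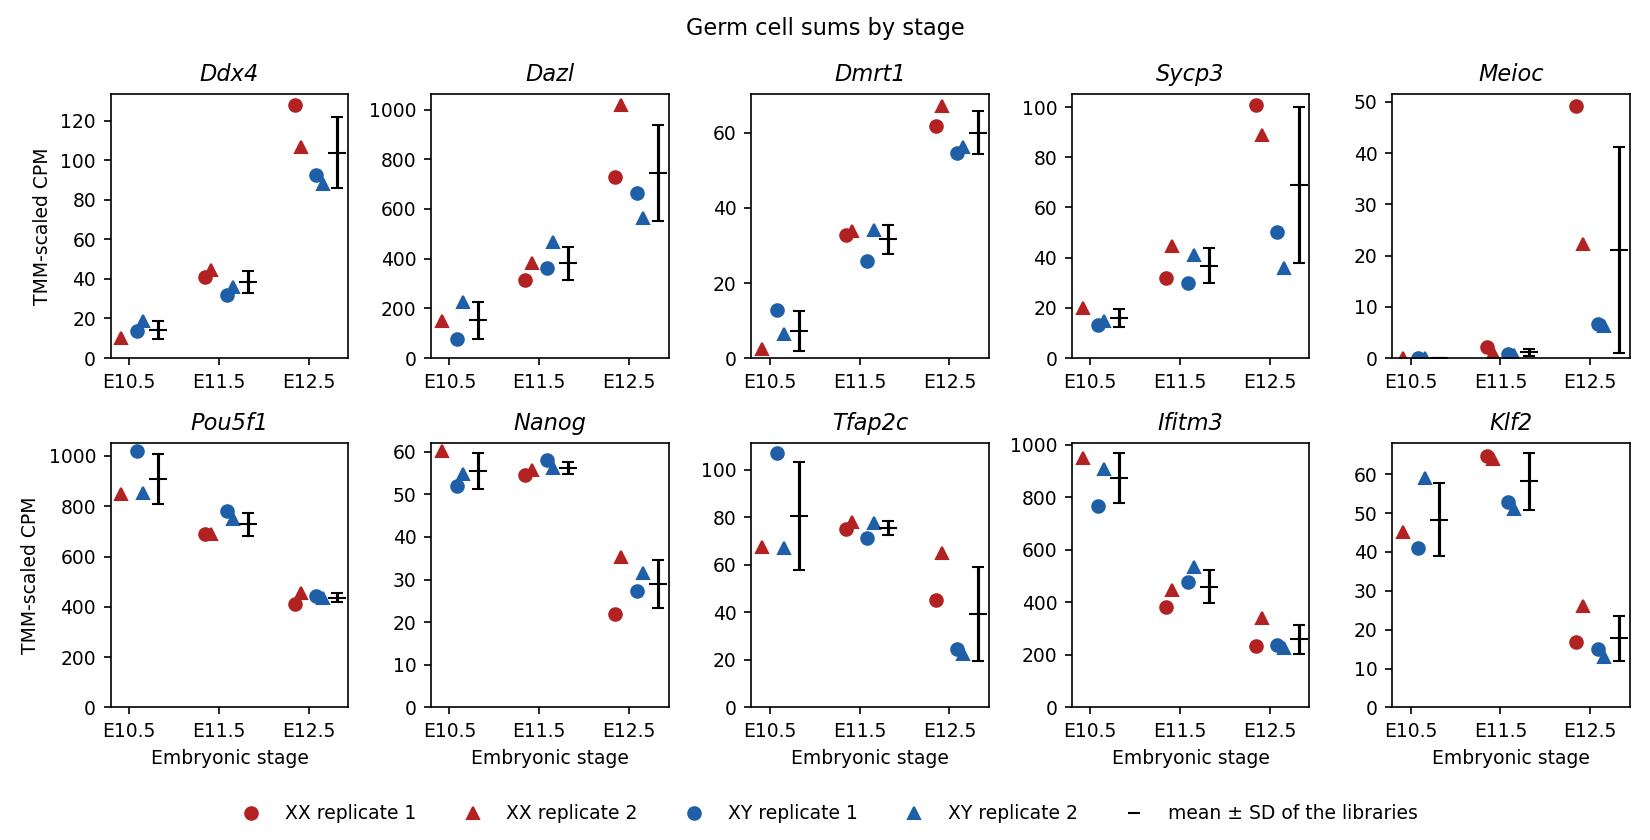
TMM-scaled CPM of 10 genes in the summed germ cells of each library at the 3 stages, with the mean and SD of each stage. XX is red and XY is blue, and XX E10.5 replicate 1, with 4 cells, is not plotted. Ddx4, Dazl and Dmrt1 are higher in all 4 libraries of E12.5 than in any earlier one, and Pou5f1, Nanog and Klf2 are lower at E12.5 than in any library of E11.5.

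Meiosis genes followed, with 11 of 13 tested higher, none lower and a median of 1.28. This is the mean change of XX and XY. Within E12.5, 8 of 14 meiosis genes tested were called higher in XX than in XY and 0 lower, beside 4.74% and 3.62% of all genes. Meioc, which is needed to hold cells in meiotic prophase, stood at 2.07, 1.02, 0.751 and 0.642 CPM at E11.5 and 49.2, 22.3, 6.61 and 6.18 at E12.5 (log2 fold change 3.798 ± 0.33 SE, adjusted p = 7.79e-05). Rec8, the meiotic cohesin, stood at 3.104, 5.604, 1.503 and 2.45 CPM and then at 49.1, 23.6, 2.06 and 1.77 (log2 fold change 1.51 ± 0.29 SE, adjusted p = 0.00325), and its E12.5 values lay above those of E11.5 in XX only. Stra8, the gene through which retinoic acid starts meiosis, was at 0 in the files at E11.5, where it was seen in fewer than 20 cells of each sex, and stood at 237, 119, 4.98 and 4.28 CPM at E12.5.

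Over the same day 16 of 30 pluripotency and identity genes fell, 2 rose (Fut4 and T) and 12 were not called, with a median of -0.58. Pou5f1 went from 688, 692, 782 and 751 CPM at E11.5 to 411, 456, 441 and 436 at E12.5 (log2 fold change -0.74 ± 0.12 SE, adjusted p = 0.00124). Nanog went from 54.6, 55.8, 58.1 and 56.1 to 21.97, 35.2, 27.2 and 31.4 CPM (log2 fold change -0.95 ± 0.15 SE, adjusted p = 0.00111), and Klf2, another factor of the naive state, from 64.8, 63.9, 52.8 and 50.9 to 16.9, 26.2, 15.02 and 13.04 CPM (log2 fold change -1.73 ± 0.16 SE, adjusted p = 7.79e-05). For all 3, every library of E12.5 lay below every library of E11.5, and 26% of all genes tested did not overlap in either direction. Of other members of the list, Prdm14 stood at 28.3, 34.6, 28.2 and 31.8 and then at 13.4, 21.5, 15.9 and 17.2 CPM (log2 fold change -0.85 ± 0.17 SE, adjusted p = 0.0039), Tfap2c at 75.1, 77.9, 71.4 and 77.7 and then at 45.2, 64.9, 24.8 and 22.7 CPM (log2 fold change -1.06 ± 0.16 SE, adjusted p = 0.000801), and Dnd1 at 112, 183, 149 and 160.3 and then at 67.9, 117, 56.7 and 53.6 CPM (log2 fold change -1.08 ± 0.19 SE, adjusted p = 0.00189). Within E12.5, Tfap2c was called higher in XX than in XY (1.22 ± 0.22, adjusted p = 0.00637) and Dnd1 was not (0.74 ± 0.27, adjusted p = 0.109). Ifitm3 (log2 fold change -0.83 ± 0.14 SE, adjusted p = 0.00178) and Nanos3 (log2 fold change -0.83 ± 0.14 SE, adjusted p = 0.00165) also fell. Other members of the network gave no call. Dppa3 stood at 803, 1228, 975 and 1296 CPM and then at 648, 997, 1564 and 1413 (log2 fold change 0.04 ± 0.18 SE, adjusted p = 0.88), Sox2 had a log2 fold change of 0.17 (adjusted p = 0.515), Prdm1 of 0.18 (adjusted p = 0.433) and Kit of 0.34 (adjusted p = 0.0874). For Dppa3 the sign turned to -0.18 without both replicate 1 libraries of E11.5.

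Genes of glycolysis and of the stress response were mostly lower at E12.5. Of 19 genes of glycolysis and lactate 14 were lower and none higher (median -0.79), among them Gapdh (-0.91 ± 0.14, adjusted p = 0.000998), Pgk1 (-0.87 ± 0.18, adjusted p = 0.00423), Pkm (-1.11 ± 0.17, adjusted p = 0.000998) and Eno1 (-1.51 ± 0.29, adjusted p = 0.00305), while Ldha was not called (-0.41 ± 0.16, adjusted p = 0.0704). Of 20 genes of the respiratory chain 3 were lower. Of 17 stress and dissociation genes 15 were lower, and the list summed to 701 to 855 CPM at E11.5 and 349 to 492 CPM at E12.5 (without TMM). The tissue taken and the date in the library labels changed along with the stage, and the part of dissociation in the other changes was not tested. Of 24 Hox genes 14 were lower and none higher (median -1.89). The list summed to 32.5 to 53.5 CPM in germ cells and 566 to 786 CPM in the other cells at E11.5, and to 16.1 to 27.9 and 297 to 366 CPM at E12.5 (without TMM), so that the level in the other cells was lower too, and its part in the values of germ cells was not tested. The erythrocyte markers summed to 420 to 4314 CPM at E12.5, and 0 of 12 was called.

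The chromatin lists were mixed. In DNA methylation, Dnmt3b (1.44 ± 0.26, adjusted p = 0.00228), Uhrf1 (1.12 ± 0.19, adjusted p = 0.0014), Tet1 (0.93 ± 0.15, adjusted p = 0.00122) and Tet2 (1.14 ± 0.22, adjusted p = 0.00311) rose and Tdg, Gadd45a and Gadd45b fell among 16 tested. Dnmt1, the maintenance methyltransferase, was not called (0.32 ± 0.12, adjusted p = 0.0673). Uhrf1 stood at 17.7, 14.01, 15.8 and 11.4 CPM at E11.5 and 33.2, 19.95, 37.4 and 39.3 at E12.5. Of 30 histone modifiers 6 rose, among them Ehmt1, Ehmt2 and Suv39h2, which methylate H3K9, and Mga, and 4 fell, namely Max, Prmt5, Hdac1 and Morc1. Morc1 stood at 26.3, 32.3, 32.4 and 33.9 CPM and then at 7.63, 12.6, 7.04 and 5.28 (log2 fold change -1.99 ± 0.19 SE, adjusted p = 8.29e-05). Of 29 imprinted genes 4 rose and 5 fell. Phlda2 stood at 225, 261, 3.26 and 3.74 CPM at E12.5, near 0 in XY alone (log2 fold change -2.15 ± 0.16 SE, adjusted p = 4.62e-05). In the cell cycle 7 of 31 rose, namely Mki67, Ccnd1, Rb1 and the inhibitors Cdkn1a, Cdkn2a, Cdkn2c and Cdkn2d. The 8 that fell were Mcm2, Mcm5, Ccnb1, Ccnd3, Cdk4, E2f1, Mycn and Aurkb. Among 18 targets of BMP, WNT and retinoic acid 7 rose and 6 fell, among 25 receptors 5 and 4, among 17 ligands 5 and 4, among 15 apoptosis genes 1 and 3, and among 11 Nodal pathway genes 1 fell, the co-receptor gene Tdgf1.

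**Figure D4:**
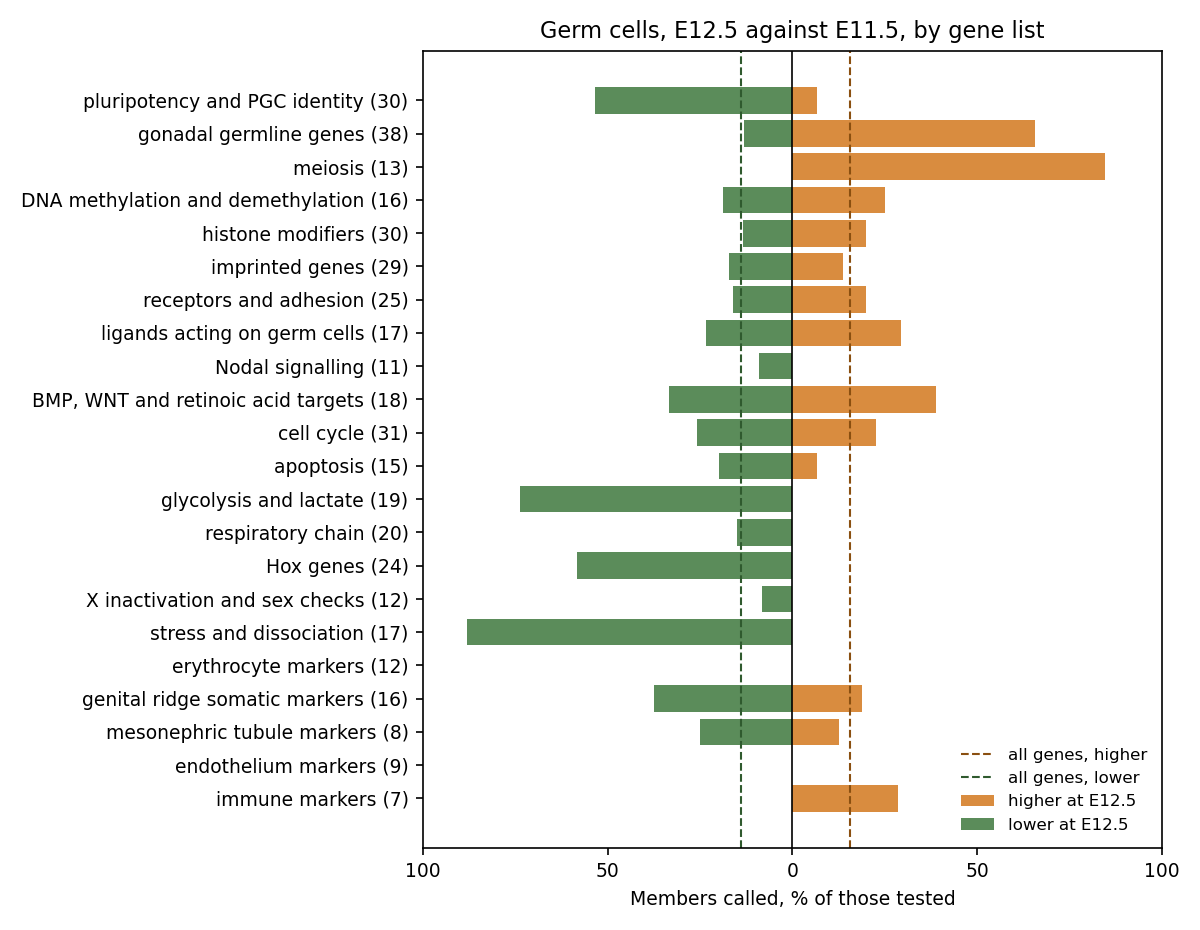
Percent of the tested members of each gene list that were called higher (right) or lower (left) in germ cells at E12.5 against E11.5. Dashed lines give the shares of all genes tested, 15.7% higher and 14% lower. Germline and meiosis genes stand out to the right, and glycolysis, stress, Hox and pluripotency genes to the left.

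Few genes passed the test between XX and XY germ cells of E10.5 and E11.5. Of 16118 genes, 5 were higher in XX (0.031%) and 0 lower, with 1 higher when the date shared by XX and XY libraries was a block. In edgeR 1196 genes had an unadjusted p under 0.05, DESeq2 called 26, and the XX and XY libraries did not overlap for 983 genes (6.1%). Xist, the RNA that coats the inactive X, stood at 158 CPM in XX at E10.5, against 2.38 and 2.103 in XY, and at E11.5 at 70.97 and 73.1 CPM against 3.76 and 7.01 (log2 fold change 4.88 ± 0.30 SE, adjusted p = 2.77e-05; with the date block 4.99, adjusted p = 0.0169). Without the 1 cell named above it was at 3.59 (adjusted p = 0.0576). The other 4 were the X-linked Alg13, a glycosylation enzyme (1.05 ± 0.14, adjusted p = 0.023), and Porcn, which acylates WNT proteins (1.37 ± 0.16, adjusted p = 0.0101), and the autosomal Phlda2 (1.49 ± 0.17, adjusted p = 0.0101) and Cxcl12 (1.796 ± 0.22, adjusted p = 0.0101). Without the 1 cell, Cxcl12 was at 0.39 (adjusted p = 0.856). None of these 4 was called with the date block, where their adjusted p-values were 0.861, 0.773, 0.762 and 0.773, and none without XX E10.5 replicate 2 or without XY E10.5 replicate 1. Without XX E10.5 replicate 2, Porcn was at 1.18 and Alg13 at 0.93, whereas Phlda2 was at 0.75 and Cxcl12 at 0.72. With any 1 library left out, 1 to 3 genes were called. With XX E10.5 replicate 1 left out, XY E10.5 replicate 1 was alone on its date in the block fit. The E10.5 part of that fit thus rested on the 7 XX and 10 XY cells of replicate 2. The block fit also had fewer degrees of freedom than the main fit, and why calls were lost in it was not tested. The erythrocyte markers, which could bring RNA of other cells, had a median log2 difference of -3.62 between XX and XY.

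The level of Xist in XX germ cells was low beside that of the other cells of the same embryos, and the X chromosome gave more of the RNA in XX than in XY germ cells. In plain CPM, Xist stood at 43.9 and 162 at E10.5 and 70.8 and 73.8 at E11.5 in XX germ cells, against 1146 to 1583 CPM in the other cells of these 4 libraries. The share of the X was taken with Xist left out, as a percent of the UMIs of X-linked and autosomal genes. Counting Xist would raise the share in XX, most of all in the other cells. Genes on the X gave 3.35 and 3.68% of these UMIs in XX germ cells of E10.5, 3.95 and 3.88% in those of E11.5, and 4.53 and 4.67% a day later. In XY germ cells they gave 3.15 and 3.18%, 3.05 and 3.08%, and 3.04 and 3.09%. The other cells of the 8 libraries of E10.5 and E11.5 had 3.89 to 4.23%. The ratio of the XX to the XY mean was 1.11, 1.28 and 1.5005 at the 3 stages, with no overlap at any, whereas the ratio in the other cells was 1.01, 0.997 and 0.961 with overlapping libraries. The ratio of E10.5 rests on XX sums of 4 and 7 cells, and the 7 include the cell rich in Hox UMIs. With 2 libraries per sex and stage a lack of overlap says little, since 55.1% of all genes tested did not overlap at E12.5. The ratios were not tested against each other.

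Gene by gene, 2 of 159 X-linked genes with at least 20 CPM (Xist aside) were called higher in XX at E10.5 and E11.5 (1.26%, with 0.0379% of autosomal genes), and at E12.5 71 of 165 were higher (43%, with 2.85% of autosomal genes) and 4 lower. At E12.5, where the sums hold more cells, 1396 of 16702 genes were called (8.36%; 36 genes with 7 cells per library and 556 with only that stage fitted), 792 higher in XX (4.74%) and 604 lower (3.62%). Among them were Stra8 (5.28), Rec8 (4.26) and Phlda2 (6.098) on the XX side and the Nodal pathway genes Lefty1 (-5.41) and Lefty2 (-5.299) on the XY side. With the date block 807 were called, and without XX replicate 1, XX replicate 2 or XY replicate 1 of E12.5 there were 642, 907 and 605. Without XY replicate 2 there were 943, and the split turned to 372 higher and 571 lower.

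**Figure D5:**
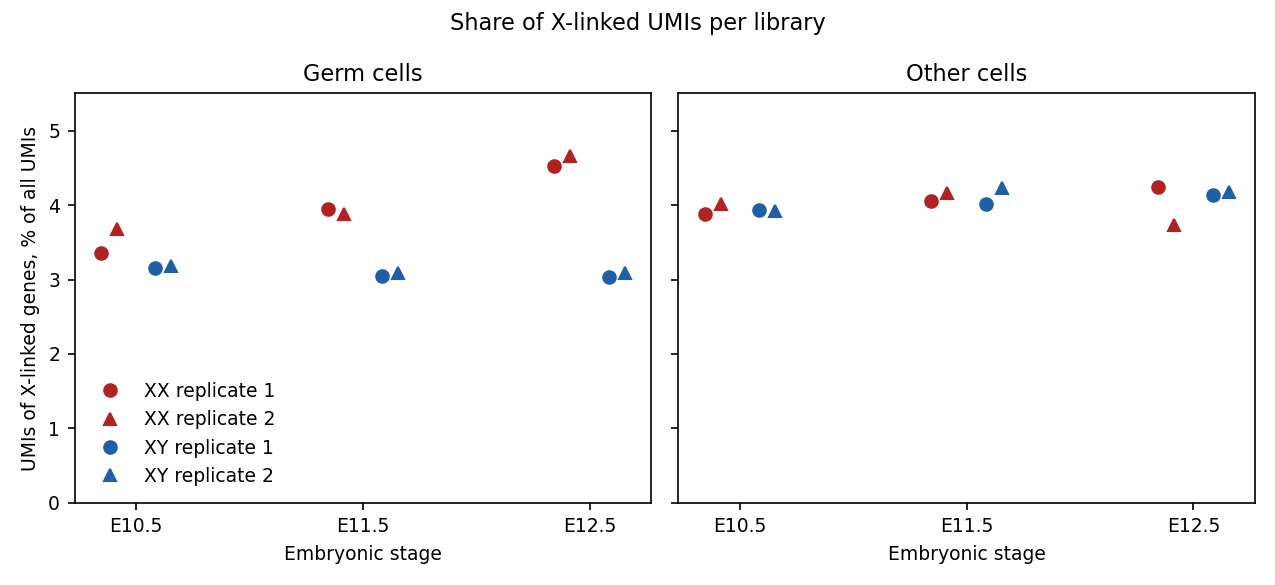
Percent of UMIs from genes on the X chromosome in the germ cells and in the other cells of each library by stage. Xist is left out, and the percent is of the UMIs of X-linked and autosomal genes. In germ cells the XX libraries (red) lie at 3.35 to 4.67% and the XY libraries (blue) at 3.04 to 3.18%, and in the other cells XX and XY overlap at each stage.

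The XX-XY difference of E12.5 was set against that of E10.5 and E11.5 in the same fit. It differed for 33 of 16078 genes (0.205%), 22 higher (0.137%) and 11 lower (0.0684%), and for 3 with the date block. Phlda2 stood at 225 and 261 CPM in XX and 3.26 and 3.74 CPM in XY at E12.5, and its sex difference grew by 4.604 ± 0.30 on the log2 scale (adjusted p = 5.73e-05; 0.0217 with the date block). Its neighbour in the imprinted domain, Slc22a18, stood at 8.48, 12.2, 7.26 and 6.72 CPM at E11.5 and 26.5, 23.6, 0.601 and 0.812 at E12.5 (4.197 ± 0.39, adjusted p = 0.000696). Rec8 (8.31 ± 1.38, adjusted p = 0.0357), Gata2 (3.504 ± 0.33, adjusted p = 0.000696) and Msx2 (2.75 ± 0.32, adjusted p = 0.00357), both targets of BMP, followed. Rec8 lost its call without 7 of the 11 libraries, and without XX E10.5 replicate 2, a sum of 7 cells, it was at 3.28. On the other side Acta2, Cxcl12, Dcn, Bcl11a and Lrrfip1 had log2 differences of -4.06, -3.75, -3.71, -2.75 and -2.39. Those 5 and Rec8 lost their calls without the 1 cell of XX E10.5 replicate 2, and Dcn then turned to 2.33. Without that cell 14 genes were called, and without XY E10.5 replicate 1 there were 4, with Slc22a18, Gata2 and Msx2 no longer called. Without XY E12.5 replicate 1 there were 11, and without XX E11.5 replicate 1, XY E11.5 replicate 2 or XX E12.5 replicate 2 there were 20, 17 and 17. Without XX E10.5 replicate 2, Dcn was at -1.41 and Bcl11a at -1.602 and neither was called, and without XY E12.5 replicate 2 the split turned to 10 higher and 18 lower. Phlda2 kept its call without each of the 11 libraries in turn.

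Changes of germ cells from E10.5 to E11.5 were also set against those of the other cells of the same libraries. They differed for 462 of 16118 genes (2.87%), 329 higher (2.04%) and 133 lower (0.825%). In this fit germ and other sums of a library are paired, and the median over all genes was 0.318. Its p-values do not allow for a date effect on germ cells alone. The markers Pou5f1 and Dppa3 were among the lower genes, and their level in the other cells moved. Pou5f1 went from 0.824, 3.02 and 0.641 to 5.57, 5.22, 6.804 and 7.397 CPM in the other cells (difference of changes -2.66 ± 0.33, adjusted p = 0.000623), while its change in germ cells was not called. Dppa3 went from 0.324, 1.54 and 0.401 to 4.23, 4.29, 5.54 and 7.97 CPM (-3.23 ± 0.35, adjusted p = 0.000196), and Utf1, a chromatin protein of pluripotent cells, from 0.105, 1.14 and 0.363 to 15.01, 18.7, 9.22 and 11.4 CPM in the other cells (-5.52 ± 0.30, adjusted p = 1.92e-07). In all, 13 of 26 pluripotency genes were lower and 3 higher, and 6 of 26 germline genes were lower and 1 higher. The share of germ cells in a library moved in the same direction, from 0.572 to 5.57%, and its part in these values was not tested.

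The 3 higher genes were Lin28a, Sall4 and Kit. Lin28a, a repressor of let-7 maturation, went from 11.6, 5.51 and 13.04 to 0.856, 0.955, 0.664 and 0.849 CPM in the other cells and from 45.1, 42.8 and 50.5 to 64.9, 51.96, 41.4 and 43.8 TMM-scaled CPM in germ cells (3.74 ± 0.28, adjusted p = 3.86e-06). Sall4, a transcription factor of stem and germ cells, went from 5.92, 4.48 and 8.501 to 1.71, 1.47, 1.51 and 1.995 CPM in the other cells (1.95 ± 0.33, adjusted p = 0.00539), and the difference for Kit was 0.96 ± 0.22, adjusted p = 0.0275 (0.110 without the 1 cell). Of 30 cell cycle genes 6 were higher and none lower, namely Pcna, Mcm5, Mcm6, Ccnb1, Ccne1 and Rbl1. In the test of germ cells alone 0 of the 30 was called. The other cells put in G1 were 21.4 to 33.4% per library at E10.5 and 52.2 to 58.7% at E11.5, and their part in these values was not tested. Among the other largest values were those of Lgals7 (-4.501), Rgcc (-4.31), Bst2 (-4.29) and Gm7676 (-4.23) below, and above 0 those of Hesx1, Myo5a, Fam8a1 and Rnf169. These 4 had no UMI in the 7 cells of XX E10.5 replicate 2, as had 21 of the 329 higher genes, so that their size depends on the small count added in the fit. Hesx1 lost its call without XY E10.5 replicate 1 or XX E11.5 replicate 1, Myo5a without XX E10.5 replicate 2 (then at 1.74), Fam8a1 without that library (1.54) or XY E10.5 replicate 1, Rnf169 without 6 of the 7 libraries (0.992 without XX E10.5 replicate 2), and Kit without XY E10.5 replicate 1, XX E11.5 replicate 1 or XY E11.5 replicate 2. Without XY E11.5 replicate 2, 273 genes were called. The split turned to 167 higher and 261 lower without XX E10.5 replicate 2 and to 38 and 111 with equal cells. It was 214 higher and 359 lower with DESeq2, and 1759 higher and 214 lower with 1 scaling over germ and other sums.

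The sex difference of germ cells at E10.5 and E11.5 differed from that of the other cells for 12 of 16118 genes (0.0745%). The XX minus XY difference was higher in germ cells than in the other cells for 10 (0.062%) and lower for 2 (51 and 19 with 1 scaling over germ and other sums). The largest values were Cpe, a peptide-processing enzyme (2.53 ± 0.43, adjusted p = 0.0436), Cxcl12 (1.77 ± 0.19, adjusted p = 0.00248), Porcn (1.26 ± 0.19, adjusted p = 0.0176), Marcks (1.16 ± 0.20, adjusted p = 0.047) and Txlng (1.05 ± 0.16, adjusted p = 0.019), and Gm8730 on the other side (-0.86 ± 0.13, adjusted p = 0.0176). Porcn, Txlng and Alg13 are on the X. Without the 1 cell of XX E10.5 replicate 2 there were 6, with Cpe, Cxcl12 and Marcks no longer called, and without the whole library 1, with Cpe at 0.83, Cxcl12 at 0.74, Marcks at 0.16 and Gm8730 at -0.26. Cpe was at 6.69, and not called, without XY E10.5 replicate 1. Without XY E10.5 replicate 1, XY E10.5 replicate 2 or XX E11.5 replicate 2 there were 2, 3 and 6. The other cells of XY E11.5 replicate 2 had Xist at 39.1 CPM, against 0.489 to 1.27 CPM in those of the other XY libraries of E10.5 and E11.5, and without this library 9 genes were called, 6 higher and 3 lower.

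Within E11.5, the germ cells of the replicate 1 libraries fell into clusters that differed in Ddx4, but not in each gene that rose by E12.5. In XX replicate 1, Ddx4 stood at 118.5 CPM in the 13 cells of the cluster that is mostly XX E12.5, at 53.6 CPM in 86 cells of the cluster that is mostly XY E12.5 and at 30.1 CPM in the other 151. In XY replicate 1 it stood at 45.5 CPM in 31 cells of the latter cluster and at 29.1 CPM in the other 181. In replicate 2, where all cells were in the early cluster, it was 44.8 CPM in XX and 35.2 CPM in XY. The clusters were made on all genes, so these values are a description, and the cells of 1 library are not replicates. In XX replicate 1, Dazl stood at 582, 315 and 294 CPM in the 13, 86 and 151 cells, Dmrt1 at 55.1, 39.8 and 27.7 CPM, Mael at 68.9, 49.4 and 20.1 CPM and Sycp3 at 41.3, 29.8 and 32.2 CPM. Between the 31 and the 181 cells of XY replicate 1, Mael was at 54.4 and 32.3 CPM, Sycp3 at 29.7 and 28.8 CPM, Dazl at 326 and 354 CPM and Dmrt1 at 23.7 and 25.4 CPM.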

How the data were processed

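Single cells of 20 libraries were captured by the authors with 10x 3′ chemistry (version 2) and sequenced on an Illumina machine. The deposited matrix holds raw UMI counts of 26397 genes in 94705 cells, made by the authors with Cell Ranger 2.1 on GRCm38 with a GFP sequence added. Genes seen in fewer than 20 cells of a sex and stage are at 0 there in the deposited counts. Cell types, clusters and phases came from the deposited cell table, of whose 27 columns 20 were not used here, and libraries were matched by date, since the table numbers the replicates of E10.5 to E12.5 the other way round. UMIs summed here differed from its totals by up to 5.74%. No doublet column was in it, and a score computed here after the Scrublet scheme marked too few cells to serve as a caller, so the top 5% by score were left out as an alternative. Whether strand was used in counting is not given in the sources used here.

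UMI counts were summed over the germ cells of each library (at least 5 cells) and the sums were fitted in R 4.3.3 with edgeR 4.0.16 and limma 3.58.1, scaled by TMM after filterByExpr. The p-values, for either direction, of the quasi-likelihood test were adjusted by Benjamini-Hochberg over all genes tested. The fit had 1 mean per sex and stage over the 11 germ cell sums of E10.5 to E12.5. Germ and other cells were compared in a paired fit with the library as a block, where the other cells are all cells of the library not named germ cells, blood included, scaled within each kind. Genes at 0 in a whole group of a contrast were left out of it, which departs from the planned filter. A log2 ratio of germ to other cells added 1 CPM to both. Other steps used python 3.11.15, numpy 2.4.6, scipy 1.17.1, pandas 2.3.3, scanpy 1.11.5 and matplotlib 3.10.9, and positions came from GENCODE M21, which holds 24915 of the symbols. Intervals are exact (Clopper-Pearson, 95%) and cover counting error only. In simulated data with known changes, 4-fold changes were recovered at 56.1% for E11.5 against E10.5, 84.8% for E12.5 against E11.5, 51.5% and 77.3% for XX against XY before and at E12.5, 50.0% for the difference of these, and 59.1% and 56.1% for stage and sex changes against other cells.

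XX and XY libraries of 1 date are paired by their labels. After the group means were taken out, the correlation of paired sums over 5515 genes was 0.631 at E11.5 and, over 5640 genes, -0.480 at E12.5. P-values measure the spread between libraries, and those of the stage tests do not allow for the date that XX and XY libraries share. Named are the 4 markers, members of 22 gene lists, the 5 largest rises and falls per test among called genes of at least 20 CPM whose libraries did not overlap (all where 10 or fewer were called), the 20 genes furthest above the other cells with at least 50 CPM in each library, and Xist and Y-linked genes. A few genes that this rule names are not reported here. Members and lists were chosen with earlier results of these data known. Alternatives were DESeq2 1.42.0, its size factors, no count filter, no fold threshold, at least 20 cells, equal cells, marker-positive cells, no erythrocytes, each sex, fewer stages in the fit, the date block and each library left out. Added after seeing the data were the doublet score, 1 scaling of germ and other sums, genes kept at 0, no replicate 1 of E11.5, no Hox-rich cell and a crossed pairing.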

Additional observations from a re-analysis of the deposited data

Results flagged for a closer look

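Some values stood apart within their group, by a gap to the nearest library that was too large for the range of the group (Dixon's test, 95%). The share of germ cells in XY E10.5 replicate 1 was 1.78%, against 0.153 to 0.197% in the other 3 libraries of that stage. Ifitm3 was at 338 CPM in XX replicate 2 of E12.5, Nanos3 at 43.6 CPM in XY replicate 1 of E11.5, Sycp1 at 37.0 CPM and Tcfl5 at 38.8 CPM in XX replicate 1 of E12.5, and Rhox9 at 943 CPM in XX replicate 2 of E11.5, all scaled by TMM. These were 6 of 92 groups tested, and chance alone flags about 1 in 20.

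Other values are tests of a difference between differences. The XX-XY difference of E12.5 departed from that of E10.5 and E11.5 for 33 genes by edgeR. The log2 differences were 8.31 for Rec8 (3.28 without XX E10.5 replicate 2), 4.60 for Phlda2, 4.20 for Slc22a18, 3.50 for Gata2, 2.75 for Msx2, -4.06 for Acta2, -3.75 for Cxcl12, -3.71 for Dcn, -2.75 for Bcl11a and -2.39 for Lrrfip1.

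The change from E10.5 to E11.5 differed between germ and other cells for 462 genes. Differences below 0 were -5.52 for Utf1, -4.50 for Lgals7, -4.31 for Rgcc, -4.29 for Bst2, -4.23 for Gm7676, -3.23 for Dppa3 and -2.66 for Pou5f1. Among those above 0 were 7.76 for Hesx1, 6.92 for Myo5a, 6.68 for Fam8a1, 6.51 for Rnf169, 3.74 for Lin28a, 1.95 for Sall4 and 0.96 for Kit. With 1 library left out, Hesx1 was at 4.08 to 11.6, Myo5a at 1.74 to 12.1, Fam8a1 at 1.54 to 6.86 and Rnf169 at 0.992 to 6.61. The sex difference at E10.5 and E11.5 differed between germ and other cells for 12 genes, with 2.53 for Cpe (0.83 without XX E10.5 replicate 2), 1.77 for Cxcl12 (0.74), 1.26 for Porcn (1.16), 1.16 for Marcks (0.16), 1.05 for Txlng (0.85) and -0.86 for Gm8730 (-0.26).

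Outside the germ cells, Xist stood at 39.1 CPM in the other cells of XY E11.5 replicate 2, against 0.489 to 1.27 CPM in those of the other XY libraries of E10.5 and E11.5. In the germ cells of the same library Xist was at 7.01 CPM (TMM).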

How the results depend on the processing

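Depth limits each comparison with E10.5, whose sums hold 7, 49 and 10 cells, and stage cannot be told apart from date. For genes called at E11.5 against E10.5 (6 in the report), the count was 39 with genes kept at 0, 2 without the Hox-rich cell, 71 with DESeq2 (14 higher, 57 lower), 10 with its size factors, 74 with no count filter, 13 with sums of at least 20 cells, 14 with equal cells, 3 in XX, 0 in XY, 11 with only the 2 stages fitted, 2 without both replicate 1 libraries of E11.5, and 0 to 11 with 1 library left out. At E12.5 against E11.5 (4904) it was 423 with equal cells, 1450 in XX, 2339 in XY, 3227 without both replicate 1 libraries and 2793 to 4883 with 1 library left out. For XX against XY at E10.5 and E11.5 (5) it was 10 with genes kept at 0, 3 without the cell, 26 with DESeq2, 22 with no filter, 1 with at least 20 cells, 3 without high doublet scores, 2 without both replicate 1 libraries and 1 to 3 with 1 library left out. At E12.5 (1396) it was 36 with equal cells, 556 with only that stage fitted and 605 to 943 with 1 library left out. For the difference of these sex differences (33) it was 61 with genes kept at 0, 14 without the cell, 143 with DESeq2, 172 with no filter, 20 with at least 20 cells, 1 with equal cells, 62 without high doublet scores and 4 to 34 with 1 library left out. For the stage change against other cells (462) it was 1323 with no filter, 225 with at least 20 cells, 149 with equal cells, 32 in XX, 1973 with 1 scaling and 273 to 451 with 1 library left out. For the sex difference against other cells (12) it was 6 without the cell, 51 with DESeq2, 110 with no filter, 1 with at least 20 cells, 19 without high doublet scores, 70 with 1 scaling and 1 to 16 with 1 library left out. The germ cell share differed by 4.37 to 5.47 points, and germ and other cells by 2394 to 2750 genes, with 1 library left out. Sums of at least 20 cells leave XY replicate 1 as the only library of E10.5. There, and without XX E10.5 replicate 2, the stages are compared in XY alone and the early sexes at E11.5 alone. The cause of the other moves was not tested.

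With the shared date as a replicate block, 1 gene was called for XX against XY at E10.5 and E11.5, 807 at E12.5 and 3 for the difference, and 12 of 27 named results (a gene in 1 comparison) lost their calls, among them those of Alg13, Porcn, Phlda2 and Cxcl12 at E10.5 and E11.5. A crossed pairing of the E12.5 libraries, tried because same-date libraries deviated in opposite directions, gave 3875. It was chosen from the same deviations that it then takes out, so more calls followed from the choice. The count is no check on the 807. The block by shared date costs degrees of freedom and leaves XY E10.5 replicate 1 without a partner. The cause of the calls lost with it was not tested. In the paired fit of germ and other cells the library block takes out only what both sums of a library share. A date effect on germ cells alone is not taken out. XX and XY libraries of 1 date count as independent there too. The planned doublet score of the cell table could not be used and was replaced.

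The sign turned only for genes without a call or for Dcn. Dppa3 at E11.5 against E10.5 was at -0.042 without the Hox-rich cell, at -0.0037 with DESeq2 or its size factors, at 0.29 without both replicate 1 libraries of E11.5, and at -0.072 to 0.19 with 1 library left out. Dnd1 was at 0.027 without the cell, 0.19 without both replicate 1 libraries and -0.15 to 0.16 with 1 left out, Nanog at -0.072 without the cell and -0.018 to 0.091 with 1 left out, and Sox2 at -0.36 without both and -0.23 to 0.20 with 1 left out. At E12.5 Dppa3 was at -0.18 without both replicate 1 libraries and at -0.16 to 0.19 with 1 left out. Dcn turned to 2.33 in the difference of sex differences without the cell, against -4.07 to -1.41 with 1 left out. Of 105 named results, 93 kept direction and call with DESeq2 and 102 with its size factors, and of 778 with 1 library left out 640 did.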

Other observations

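Gene lists not described above were also counted in germ and other cells of E10.5 and E11.5, again as a description. The counts are to be read against all genes measured, of which 4% were over 2-fold higher and 14.2% lower in germ cells in all 8 libraries. Of 15 ligands measured 8 were over 2-fold lower in germ cells in all 8 libraries, and Pdgfa, a growth factor for mesenchyme, was the 1 that was higher, at 159.8 to 283 CPM in germ cells and 23.3 to 83.6 CPM in the other cells. Of 19 genes of glycolysis 3 were lower and 2, Pfkp and the glucose transporter gene Slc2a3, were higher, with Slc2a3 at 27.9 to 79.6 CPM in germ cells and 3.29 to 7.27 CPM in the other cells. Of 20 genes of the respiratory chain 1 was higher and none lower (median log2 ratio 0.20). Of 30 histone modifiers 3 were higher, Suz12, L3mbtl2 and Morc1, and 1 lower, the demethylase gene Kdm6b. L3mbtl2, a part of the Polycomb complex at germline promoters, was at 33.4 to 47.1 CPM in germ cells and 9.41 to 17.2 CPM in the other cells. Of 17 stress and dissociation genes 7 were lower and none higher (median -2.26). Of 14 apoptosis genes 1 was higher and 3 lower, of 18 targets of BMP, WNT and retinoic acid 1 and 4, and of 8 Nodal pathway genes 0 and 1. Among lists of other cell types, 4 of 8 mesonephric tubule, 2 of 8 endothelium, 6 of 11 erythrocyte and 0 of 4 immune markers were lower, and none was higher. A marker that germ cells hardly express counts as measured only through the other cells, so a higher value was hardly open to it.

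Detection per cell varied among genes of the pluripotency network. After thinning to 10000 UMIs per cell, 99.2 to 100.0% of germ cells of the E11.5 libraries had a Pou5f1 UMI, 39.2 to 46.6% one of Nanog, 51.7 to 72.3% one of Sox2 and 26.6 to 30.9% one of Prdm1, against 96.04 to 100.0%, 75.9 to 85.6%, 90.1 to 98.8% and 55.4 to 71.2% without thinning. Thinning left out 1 to 17 shallower cells per library. At E12.5 against E11.5, 3 of 16 genital ridge markers were called higher and 6 lower in the germ cell sums, 1 and 2 of 8 mesonephric tubule markers, 2 and 0 of 7 immune markers and 0 of 9 endothelium markers.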
